A study of Drosophila melanogaster with 7 samples.

Results

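The genes of the CYP4 clan of cytochromes P450 were compared between whole first-instar larvae of *Drosophila melanogaster* mutant for *pof* and wild-type larvae. Members were the genes whose platform symbol starts with Cyp4 and a letter, or with Cyp311, Cyp312, Cyp313, Cyp316 or Cyp318. The rule found 32 genes on 33 probe sets, of 10844 genes with a probe set of their own, and 1 probe set per gene, that with the highest mean over all arrays, was used. These are all 32 genes of the RefSeq Release 6 annotation whose symbols match the rule. The samples were 4 pools of pof mutant larvae and 3 pools of wild-type larvae, each of 400 larvae of mixed sex with 1 Affymetrix array per pool. The sources used here name neither the pof allele nor the genetic background of the stocks. *Pof* codes for a protein that binds RNA and covers chromosome 4, where no member lies: 9 are on X, 5 on 2L, 7 on 2R, 4 on 3L and 7 on 3R.

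Cytochromes P450 are haem enzymes that use molecular oxygen and electrons from a reductase to oxidise small molecules. In insects the CYP4 clan is one of the main branches of the family, and its best known reactions are on fatty acids and hydrocarbons, while several members respond to foreign compounds or take part in insecticide resistance. *Cyp4g1* acts in the oenocytes, lipid-handling cells of the body wall, where its enzyme makes the cuticular hydrocarbons that protect the fly from drying out.

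Values are log2 expression after RMA, the authors' background correction, normalization between arrays and summary over the probes of a probe set. They can be compared between arrays for 1 probe set, and not as amounts between genes, since probe sets bind with different strength. Over all 13966 probe sets tested, array medians ran from 6.01 to 6.06 and correlations between arrays from 0.970 to 0.995. The arrays differed in transcript evenness: for control transcripts (actin, GAPDH, eIF-4a) the log2 signal at the 3' end exceeded that at the 5' end by 3.22 on the first and 3.95 on the second mutant array and by 4.32 on wild type replicate 1, and by 1.92 to 2.19 on the other arrays. The *Pof* probe set lay near the floor, at 3.43, 3.43, 3.50 and 3.41 on the mutant arrays and 3.90, 3.77 and 3.64 on the wild-type arrays. All mutant arrays were lower (-0.33 ± 0.07, SE; limma, adjusted p = 0.323), and where the probes lie relative to the lesion is not known here. The number of arrays limits the precision, and with whole larvae, fewer cells of a type and less RNA per cell cannot be told apart. The design text calls the mutant pools biological replicates and the wild-type pools replicates, with nothing on separate crosses. The p-values therefore set each difference against the spread between these pools.

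Mean log2 expression over the 7 arrays was at least 7 for 8 members, from 6 to 7 for 6, from 5 to 6 for 8 and under 5 for 10. Of all probe sets, 27.5% had a mean under 5, where RMA compresses signals and true differences are understated. The 8 probe sets at 7 or more were those of *Cyp4e2* (8.33), *Cyp4g1* (7.74), *Cyp4ad1* (7.46), *Cyp4p2* (7.42), *Cyp4g15* (7.33), *Cyp4s3* (7.25), *Cyp313b1* (7.13) and *Cyp4d2* (7.05). Those nearest the floor were *Cyp316a1* (3.26), *Cyp313a2* (3.44) and *Cyp313a5* (3.45), all within the lowest 3.39% of probe sets.

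Among the 32 members only *Cyp4d1* passed the threshold for a difference, and it rose in the mutant by 3.06-fold. That is 1 of 32 (3.13%), against 0.0644% of all probe sets past the threshold (limma, Benjamini-Hochberg adjusted p under 0.05 over 13966 probe sets), and 0.0358% past it as higher in the mutant. A further 4 members had an unadjusted p under 0.05: *Cyp4ac3* had a higher mean in the mutant, and *Cyp4p1*, *Cyp4p2* and *Cyp4s3* a lower one. With *Cyp4d1* these make 5 of 32 (15.6%), where 5.43% of all probe sets had such a p (3.06% higher and 2.37% lower in the mutant). The same 5 were the members whose mutant and wild-type arrays did not overlap, against 6% of all probe sets (3.21% higher and 2.79% lower). The members' median difference (log2, mutant minus wild type) was -0.04, beside -0.02 over all probe sets. In the mutant, 11 members had a higher and 21 (65.6%) a lower mean, and 58.0% of all probe sets had a lower one.

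**Figure D1:**
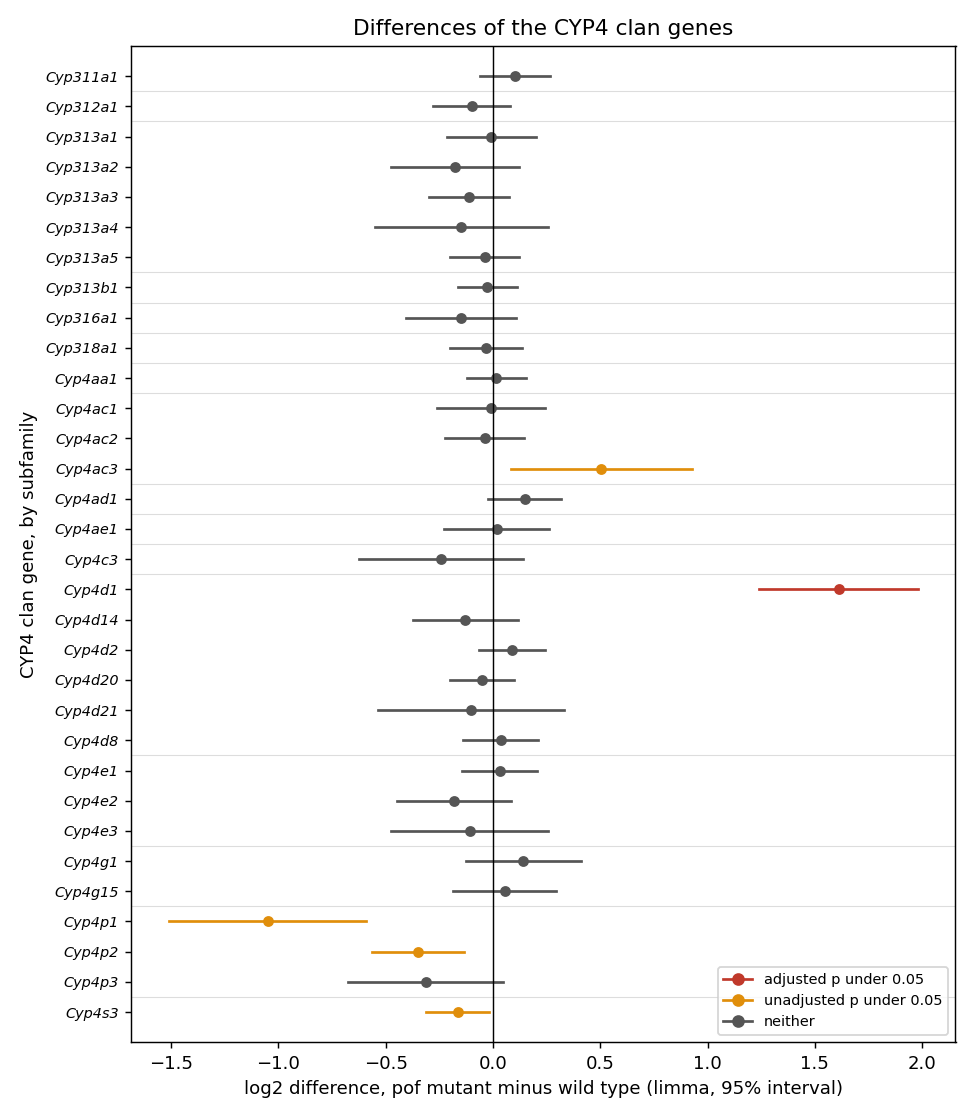
Log2 difference (pof mutant minus wild type, x axis) of each of the 32 CYP4 clan genes (y axis, in order of subfamily), with limma's 95% interval as a line. *Cyp4d1*, at 1.61, is the 1 gene past an adjusted p of 0.05; the genes with an unadjusted p under 0.05 are in orange, and most other intervals cross 0 within 0.5 of it.

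For the members that did not pass, the intervals show how large a difference in the measured values the arrays leave room for. For the 10 members with a mean under 5, where RMA understates differences, the true change can be larger than the interval. The 95% interval of the log2 difference lay within 1 of 0, a 2-fold change on this scale, for 30 of 32 members, the exceptions being *Cyp4d1* and *Cyp4p1*. It lay within 0.5 of 0 (1.41-fold) for 24. The 27 members with an unadjusted p of at least 0.05 had differences from -0.31 to 0.15, each with a limma adjusted p of at least 0.962. The median size of the difference, regardless of sign, was 0.11 for the members and 0.07 for all probe sets.

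The Cyp4d subfamily has 6 genes. *Cyp4d1* (X) had a log2 expression of 7.53, 7.11, 7.33 and 6.88 on pof mutant replicates 1 to 4, against 5.61, 5.78 and 5.42 on wild type replicates 1 to 3. The lowest mutant array lay more than 1 log2 unit above the highest wild-type array. The means were 7.21 ± 0.28 (SD, 4 mutant arrays) against 5.60 ± 0.18 (SD, 3 wild-type arrays), a difference of 1.61 ± 0.16 (SE, 95% interval 1.24 to 1.98; limma, adjusted p = 0.0177).

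The size of the *Cyp4d1* difference changed little with the arrays used, and its place relative to the threshold did change. Within the 4 arrays of small 3' minus 5' difference it was 1.51, within the other 3 it was 1.71, and with that 3' minus 5' difference as a covariate it was 1.61 (limma, adjusted p = 0.00687). Leaving out 1 array moved it between 1.505 and 1.72. The call ended when the first (limma, adjusted p = 0.0722), the second (0.0902) or the third mutant array (0.115) was left out, and likewise for the second (0.0935) or the third wild-type array (0.0949).

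**Figure D2:**
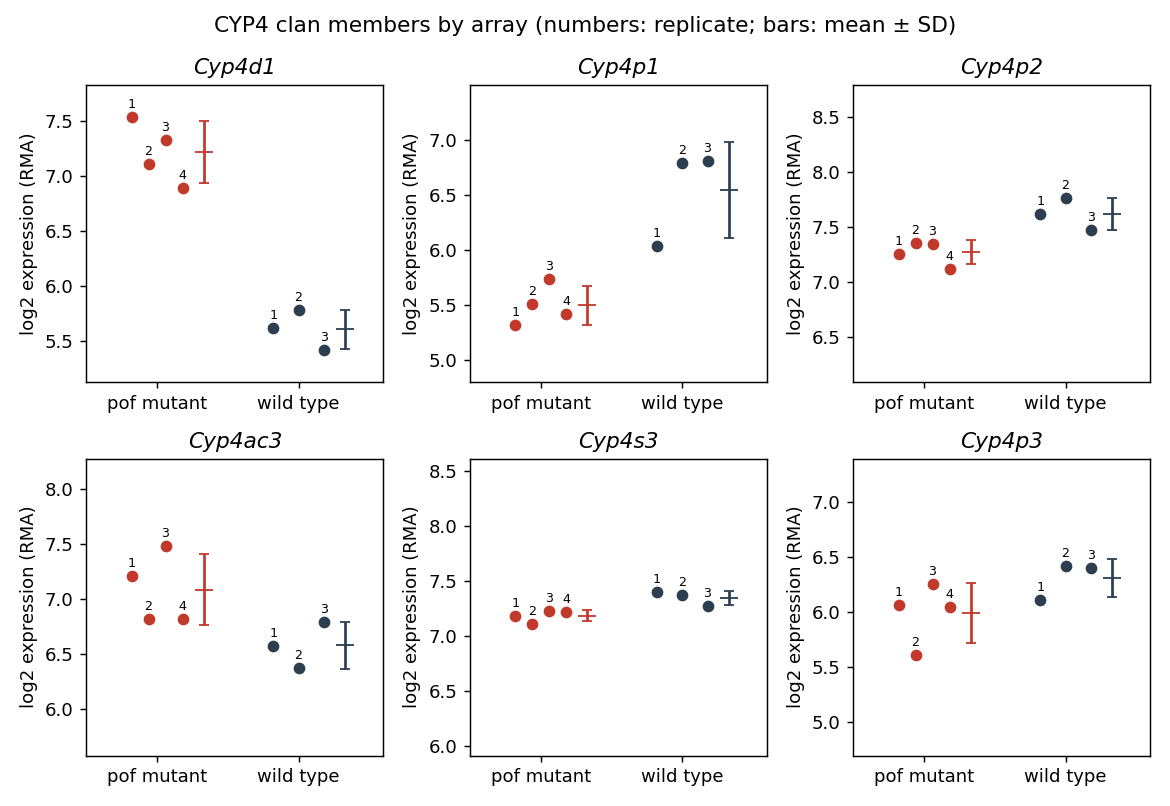
Log2 expression (RMA, y axis) of 6 CYP4 clan genes on each of the 4 pof mutant arrays (left, red) and 3 wild-type arrays (right, dark), with the replicate number above each point and mean ± SD as bars; all panels span the same number of log2 units. The groups of *Cyp4d1* stand farthest apart, those of *Cyp4p1*, *Cyp4p2*, *Cyp4ac3* and *Cyp4s3* do not overlap, and those of *Cyp4p3* do.

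None of the other 5 Cyp4d genes had an unadjusted p under 0.05. *Cyp4d2* had 7.11, 7.07, 7.12 and 7.04 on the mutant arrays and 6.89, 7.03 and 7.06 on the wild-type arrays, a difference of 0.09 ± 0.07 (SE). The groups overlapped by 1 wild-type array. *Cyp4d20* had 6.73, 6.73, 6.70 and 6.59 on the mutant arrays and 6.69, 6.80 and 6.74 on the wild-type arrays (-0.05 ± 0.06, SE), and *Cyp4d8* had 5.64, 5.46, 5.57 and 5.42 on the mutant arrays and 5.56, 5.46 and 5.44 on the wild-type arrays (0.04 ± 0.07, SE). For *Cyp4d20* the groups overlapped in part, with mutant replicate 4 lowest and wild type replicates 2 and 3 highest, and for *Cyp4d8* the wild-type arrays lay inside the mutant range. *Cyp4d14* had 4.31, 4.45, 4.36 and 4.36 on the mutant arrays and 4.74, 4.30 and 4.46 on the wild-type arrays (-0.13 ± 0.11, SE). *Cyp4d21* had 3.43, 3.83, 3.54 and 3.47 on the mutant arrays and 4.13, 3.52 and 3.36 on the wild-type arrays (-0.10 ± 0.19, SE). Both were low, overlapped between the groups and were highest on wild type replicate 1. *Cyp4d21*, also called *sxe1*, is an enzyme of the adult male head tied to courtship.

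Taken as a ratio within each array, *Cyp4d1* over *Cyp4d2* had a mean log2 ratio of 0.13 ± 0.25 (SD, 4 mutant arrays) against -1.39 ± 0.22 (SD, 3 wild-type arrays), a shift of 1.52. Against the other 4 genes of the subfamily the ratio shifted by 1.58 (*Cyp4d8*), 1.66 (*Cyp4d20*), 1.71 (*Cyp4d21*) and 1.74 (*Cyp4d14*). Each of these 5 ratios had the smallest p that the 35 splits of 7 arrays allow (exact two-sided permutation p = 0.0286). All 5 hold the same *Cyp4d1* values, whose groups already stood apart, so they restate that gap and are not separate tests. Over all 35 pairs of genes of the same subfamily, 7 reached that p, these 5 among them. The adjusted p was 0.143 for each, since this design cannot pass 0.05 with so few pairs at the limit.

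The 3 genes of the Cyp4p subfamily, which lie side by side on 2R, all had a lower mean in the mutant, and none passed the threshold. *Cyp4p1* had 5.32, 5.51, 5.74 and 5.42 on the mutant arrays, against 6.04, 6.79 and 6.81 on the wild-type arrays. The groups did not overlap, and wild type replicate 1, where the 3' minus 5' difference was largest, lay closest to the mutant. The difference was -1.05 ± 0.20 (SE, 95% interval -1.51 to -0.59; limma, adjusted p = 0.184, unadjusted p = 0.000817), a 2.07-fold higher level in wild type.

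*Cyp4p1* passed the threshold in 3 of its 17 alternative fits, over which the limma adjusted p ran from 0.000252 to 0.652. Without wild type replicate 1 the difference was -1.30 (limma, adjusted p = 0.0121), and with the 3' minus 5' difference as a covariate it was -1.02 (adjusted p = 0.0149). Within the 4 arrays of small 3' minus 5' difference it was -1.22, and within the other 3, with a single wild-type array, -0.63.

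*Cyp4p2* had 7.26, 7.35, 7.35 and 7.12 on the mutant arrays and 7.62, 7.76 and 7.48 on the wild-type arrays. Again the groups did not overlap, with a difference of -0.35 ± 0.09 (SE; limma, adjusted p = 0.452, unadjusted p = 0.00571). *Cyp4p3* had 6.07, 5.61, 6.25 and 6.05 on the mutant arrays and 6.11, 6.42 and 6.40 on the wild-type arrays, and mutant replicate 3 lay above wild type replicate 1. Its difference was -0.31 ± 0.16 (SE; limma, adjusted p = 0.962). The shift of *Cyp4p1* relative to *Cyp4p2* within arrays was -0.70 (exact two-sided permutation p = 0.0286, adjusted p = 0.143 over the 35 pairs), and relative to *Cyp4p3* -0.74 (exact p = 0.0571, adjusted p = 0.25). Both ratios hold the same *Cyp4p1* values, whose groups already stood apart, so they are not separate tests of that gap. The Cyp4p genes are similar in sequence, and how far a probe set of one binds RNA of another was not tested. All 33 member probe sets have names ending in _at with no further suffix.

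In the Cyp4ac subfamily, 3 adjacent genes on 2L, 1 gene had an unadjusted p under 0.05. *Cyp4ac3*, that gene, had 7.20, 6.82, 7.48 and 6.82 on the mutant arrays and 6.57, 6.36 and 6.79 on the wild-type arrays. The groups were apart by a narrow margin, and mutant replicates 1 and 3 were the high arrays. The difference was 0.51 ± 0.18 (SE; limma, adjusted p = 0.806, unadjusted p = 0.0251). *Cyp4ac1* had 5.53, 5.33, 5.71 and 5.58 on the mutant arrays and 5.49, 5.71 and 5.44 on the wild-type arrays. *Cyp4ac2* had 4.11, 4.17, 4.09 and 3.99 on the mutant arrays and 4.26, 4.11 and 4.02 on the wild-type arrays. The groups of both overlapped, with differences of -0.0093 ± 0.11 (SE) and -0.04 ± 0.08. Within arrays, the ratio of *Cyp4ac1* to *Cyp4ac3* shifted by -0.51 (exact two-sided permutation p = 0.0857, adjusted p = 0.3 over the 35 pairs), and a difference in response between these neighbours was not shown.

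*Cyp4s3* (X), the only gene of its subfamily here, had 7.18, 7.11, 7.22 and 7.22 on the mutant arrays and 7.39, 7.37 and 7.27 on the wild-type arrays. All mutant arrays lay lower, and the whole spread was small. The difference was -0.16 ± 0.06 (SE; limma, adjusted p = 0.842, unadjusted p = 0.0322), and it was -0.10 within the arrays of small 3' minus 5' difference and -0.25 within the others.

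The Cyp4g subfamily holds the hydrocarbon-forming enzyme. *Cyp4g1* (X) had 7.79, 7.91, 7.77 and 7.75 on the mutant arrays and 7.46, 7.59 and 7.94 on the wild-type arrays. The mutant arrays lay inside the wild-type range, and the difference was 0.14 ± 0.12 (SE, 95% interval -0.13 to 0.41; limma, adjusted p = 0.962). It was -0.0039 within the arrays of small 3' minus 5' difference and 0.39 within the others, where the single wild-type array is the lowest of all. *Cyp4g15* (X), known from the larval nervous system, had 7.35, 7.21, 7.52 and 7.35 on the mutant arrays and 7.11, 7.35 and 7.44 on the wild-type arrays. Its groups overlapped too, with a difference of 0.05 ± 0.10 (SE).

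Of the Cyp4e genes, *Cyp4e2* (2R) had 8.25 ± 0.12 (SD, 4 mutant arrays) against 8.43 ± 0.22 (SD, 3 wild-type arrays), a difference of -0.18 ± 0.11 (SE; limma, adjusted p = 0.962). *Cyp4e3*, whose enzyme contributes to permethrin tolerance in the Malpighian tubules, was at 5.46 ± 0.16 (SD, 4 mutant arrays) against 5.57 ± 0.32 (SD, 3 wild-type arrays). *Cyp4e1* was at 4.46 ± 0.10 (SD, 4 mutant arrays) against 4.43 ± 0.07 (SD, 3 wild-type arrays). None of the 3 had an unadjusted p under 0.05 in the limma fit of the deposited values without covariates or array weights. *Cyp4e2* did have such a p in some alternative fits.

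The remaining Cyp4 genes are single members of their subfamilies. *Cyp4c3* (3R) had the widest spread of them, 6.56 ± 0.16 (SD, 4 mutant arrays) against 6.80 ± 0.35 (SD, 3 wild-type arrays), where replicate 3 stood at 7.20 and the other two at 6.62 and 6.59. *Cyp4ad1* (2R) was at 7.52 ± 0.06 (SD, 4 mutant arrays) against 7.38 ± 0.11 (SD, 3 wild-type arrays), a difference of 0.15 ± 0.07 (SE; limma, unadjusted p = 0.079). *Cyp4aa1* (2R) differed by 0.02 ± 0.06 (SE) and *Cyp4ae1* (X) by 0.02 ± 0.10. The differences of *Cyp4aa1* and *Cyp4ae1* are near 0 beside their standard errors.

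Outside the Cyp4 family the clan holds 10 genes, of which only *Cyp311a1* had a higher mean in the mutant. *Cyp311a1* (X), required for the lipids of microvilli in the anterior midgut, was at 5.95 ± 0.08 (SD, 4 mutant arrays) against 5.85 ± 0.07 (SD, 3 wild-type arrays), a difference of 0.10 ± 0.07 (SE). The 5 Cyp313a genes, all on 3R, had differences from -0.18 (*Cyp313a2*) to -0.0074 (*Cyp313a1*), none with an unadjusted p under 0.05. Within the arrays of small 3' minus 5' difference they were -0.02 for *Cyp313a1*, -0.06 for *Cyp313a2*, -0.17 for *Cyp313a3*, 0.04 for *Cyp313a4* and -0.0077 for *Cyp313a5*. Within the other 3 arrays, with wild type replicate 1 as the single wild-type array, they were -0.06 for *Cyp313a1*, -0.46 for *Cyp313a2*, 0.02 for *Cyp313a3*, -0.57 for *Cyp313a4* and -0.12 for *Cyp313a5*. *Cyp313b1* differed by -0.03 ± 0.06 (SE), *Cyp312a1* by -0.10 ± 0.08 and *Cyp316a1* by -0.15 ± 0.11. *Cyp318a1* had the only second probe set of the clan, and the differences were -0.03 ± 0.07 for the brighter and -0.0077 ± 0.09 for the dimmer of them.

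Many low members were high on 1 array. Of the 10 members with a mean under 5, wild type replicate 1 was the highest array for 8, and so it was for 49.0% of all probe sets at that level. For *Cyp313a4* it stood at 5.45, where the other 6 arrays ran from 4.70 to 4.89, and for *Cyp316a1* at 3.63, where the others ran from 3.17 to 3.22. Of these 10 members, 9 had a lower mean in the mutant (median difference -0.10; -0.04 for all probe sets under 5), and 4 of 10 without wild type replicate 1 (median 0.02; 0.01 for all probe sets under 5). Above a mean of 6, where 14 members lie, 7 were higher and 7 lower in the mutant.

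**Figure D3:**
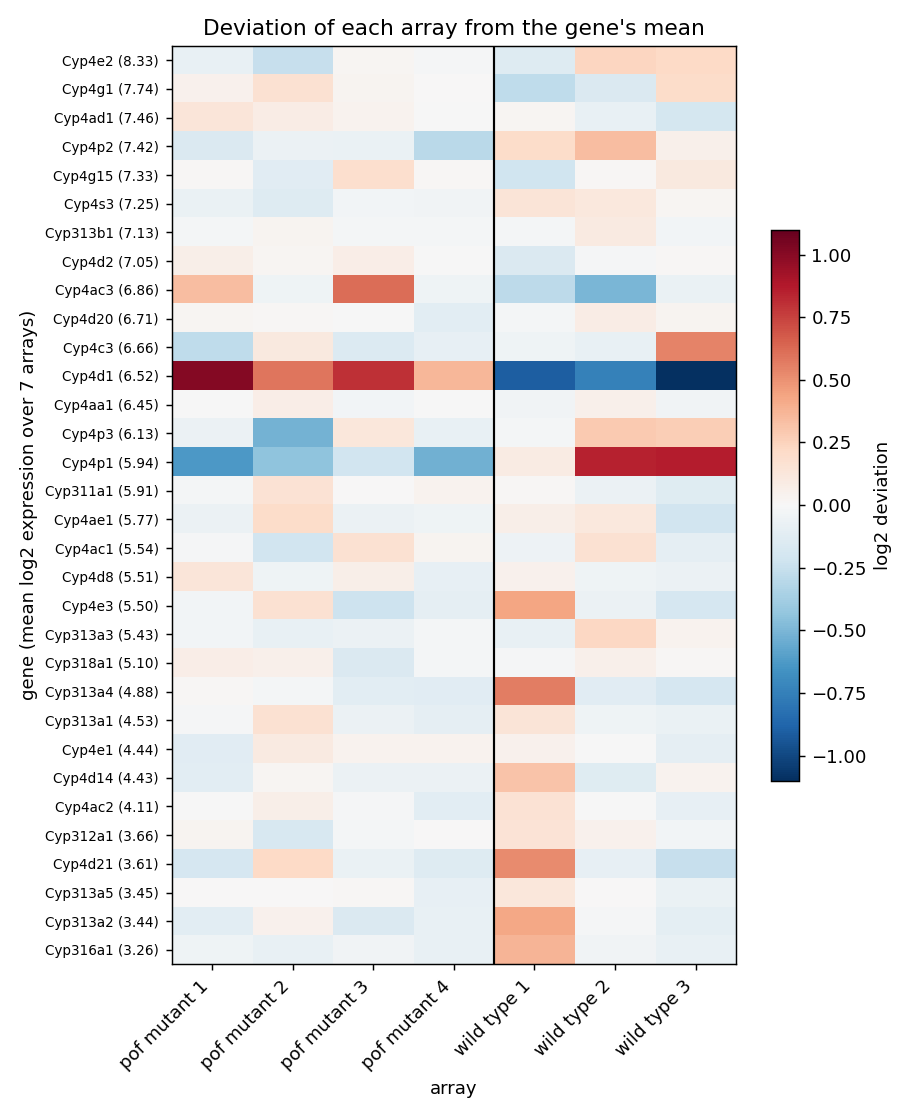
Deviation (log2, colour) of each array from the gene's mean over 7 arrays, for the 32 CYP4 clan genes in order of mean log2 expression (given beside each name), with the 4 pof mutant arrays left of the line and the 3 wild-type arrays right of it. *Cyp4d1* and *Cyp4p1* show the strongest contrast between the groups, while wild type replicate 1 alone stands high for many genes with a mean under 5.

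Many members sit next to each other in the genome, in 7 runs that hold 19 of the 32 genes with no other protein-coding gene between them by start position in the Release 6 annotation. *Cyp4d1* is not in such a run: it lies 3 genes before *Cyp4d14*, which starts the run *Cyp4d14*, *Cyp4d2* and *Cyp4ae1*. Of the 10 nearest protein-coding genes, 5 on each side, 8 had a value, and these differed by -0.16 to 0.12 with no unadjusted p under 0.05. Between *Cyp4d1* and *Cyp4d14* lie *CG3630* (0.12 ± 0.07, SE) and *ND-B14.5A* (-0.14 ± 0.08, SE), a respiratory complex I subunit. No measured neighbour of *Cyp4d1* came near its difference of 1.61.

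Around *Cyp4p1*, its direct neighbours *Cyp4p2* and *Cyp4p3* were the 2 genes of 8 measured with the lowest differences after its own. The gene *VhaAC45*, an accessory subunit of the vacuolar proton pump 3 genes away, had a higher mean in the mutant (9.22 ± 0.17, SD, n = 4) than in wild type (8.69 ± 0.16, SD, n = 3), by 0.53 ± 0.11 (SE; limma, adjusted p = 0.282, unadjusted p = 0.0018). The run of *Cyp4ad1* (0.15), *Cyp4e2* (-0.18) and *Cyp4e1* (0.03) on 2R did not share a direction. Nor did the Cyp4ac run, the run that starts with *Cyp4d14*, *Cyp316a1* with *Cyp4d8*, or *Cyp311a1* with *Cyp318a1*. In the Cyp4p run and the run of *Cyp313a5*, *Cyp313a2* and *Cyp313a3*, every mean was lower in the mutant.

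**Figure D4:**
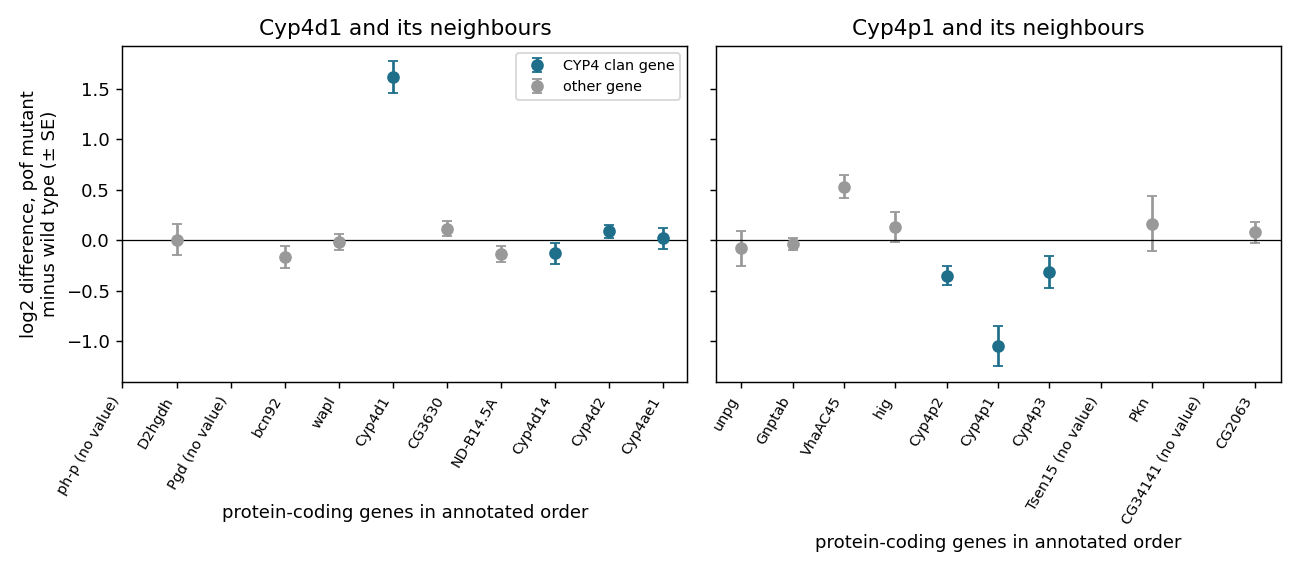
Log2 difference (pof mutant minus wild type ± SE, y axis) of *Cyp4d1* (left) and *Cyp4p1* (right) and of the 5 protein-coding genes on each side in annotated order (x axis, not to distance); genes without a value were not analysed here. *Cyp4d1* stands alone at 1.61 among neighbours of -0.16 to 0.12, and *Cyp4p1* at -1.05 lies between *Cyp4p2* and *Cyp4p3*, at -0.35 and -0.31.

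Genes that serve P450 enzymes had no member past the threshold (limma, adjusted p over all probe sets). The share of all probe sets with an unadjusted limma p under 0.05 was 5.43%. Of 7 measured electron transfer genes 1 had an unadjusted p under 0.05, the cytochrome b5-like *CG6870*, with a higher mean in the mutant (0.38 ± 0.15, SE; adjusted p = 0.882); the list's median difference was 0.01. *Cyt-b5*, an electron donor to P450s, differed by 0.34 ± 0.30 (SE) and *Cyt-b5-r* by -0.56 ± 0.31. Of the 7 genes, 4 had a higher and 3 a lower mean in the mutant, where 58.0% of all probe sets had a lower one. The NADPH-dependent P450 reductase was not analysed here. Of 8 haem synthesis genes none had an unadjusted p under 0.05 (median -0.05). Their mean was higher in the mutant for 2 and lower for 6, with ferrochelatase, *FeCH*, which inserts iron into the ring, at -0.15 ± 0.07 (SE).

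Among 20 genes of fatty acyl and hydrocarbon synthesis, which make the substrates of *Cyp4g1*, 3 had an unadjusted p under 0.05 (5.43% of all probe sets did) and none passed the threshold. The fatty acid synthase *FASN1* had a difference of 0.37 ± 0.09 (SE; limma, adjusted p = 0.408), the desaturase *Desat1* of 0.46 ± 0.15 (adjusted p = 0.684), and the elongase-like *CG5326* of -0.25 ± 0.10 (adjusted p = 0.882). The list's median was -0.02, with 9 means higher and 11 lower in the mutant. None of 16 regulators of the response to foreign compounds and juvenile hormone had an unadjusted p under 0.05 (median -0.05). The mean was higher in the mutant for 5 and lower for 11 of them. The gene *maf-S*, which partners *cnc*, was at 0.44 ± 0.21 (SE) and *Keap1*, which inhibits *cnc*, at -0.16 ± 0.08.

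The arrays were also read for markers of larval tissues in which P450s are expressed. Of all probe sets, 5.43% had an unadjusted limma p under 0.05, 3.06% as higher and 2.37% as lower in the mutant. The oenocyte list, which includes *Cyp4g1* itself and shares *Desat1*, *bond*, *spidey*, *FarO*, *FASN2* and *CG17562* with the hydrocarbon list, had 1 of 8 genes with an unadjusted p under 0.05 (median difference 0.01; per-array medians -0.0030 to 0.16 in the mutant and -0.09 to 0.03 in wild type). The Malpighian tubule list had none of 9 (median 0.08; -0.02 to 0.08 in the mutant and -0.20 to 0.02 in wild type). The fat body list had 4 of 10, 2 higher and 2 lower in the mutant (median -0.07; -0.07 to 0.09 in the mutant and -0.08 to 0.02 in wild type). The midgut list had 7 of 14, 5 higher and 2 lower (median 0.28; -0.14 to 0.41 in the mutant and -0.42 to -0.016 in wild type). Its smallest p values were those of the proteases *betaTry* (1.37 ± 0.22, SE), *Jon44E* (0.65 ± 0.14) and *Jon25Biii* (-0.58 ± 0.13) and the mannosidase *LManI* (0.53 ± 0.10), the lowest adjusted p being 0.156 (limma). The trachea and cuticle list had 2 of 10 (median -0.02; -0.02 to 0.04 in the mutant and -0.50 to 0.22 in wild type). No gene of these lists passed the threshold. Higher and lower means in the mutant numbered 4 and 4 in the oenocyte list and 8 and 1 in the Malpighian tubule list. They numbered 4 and 6 for fat body, 10 and 4 for midgut, and 5 and 5 for trachea and cuticle. A lower mean was found for 58.0% of all probe sets. The highest marker of each list had a mean of 7.88 to 13.2 and the lowest a mean of 4.26 to 5.78. Since levels are not amounts between genes, these means do not show how far each tissue was represented. The part of tissue makeup in the values of *Cyp4d1* and the Cyp4p genes was not tested.

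Set beside the other P450 groups of the array, the CYP4 clan had 1 gene of 32 past the threshold, the CYP3 clan 1 of 37, the mitochondrial CYP12 group 1 of 6 and the CYP2 clan 0 of 5. Of all probe sets, 0.0644% passed it. An unadjusted limma p under 0.05 was found for 5 CYP4, 10 CYP3, 4 CYP12 and 0 CYP2 genes, and for 5.43% of all probe sets. The median size of the log2 difference was 0.11 in the CYP4 clan, 0.08 in the CYP3 clan, 0.31 in the CYP12 group and 0.05 in the CYP2 clan, and differences between the groups were not tested.

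**Figure D5:**
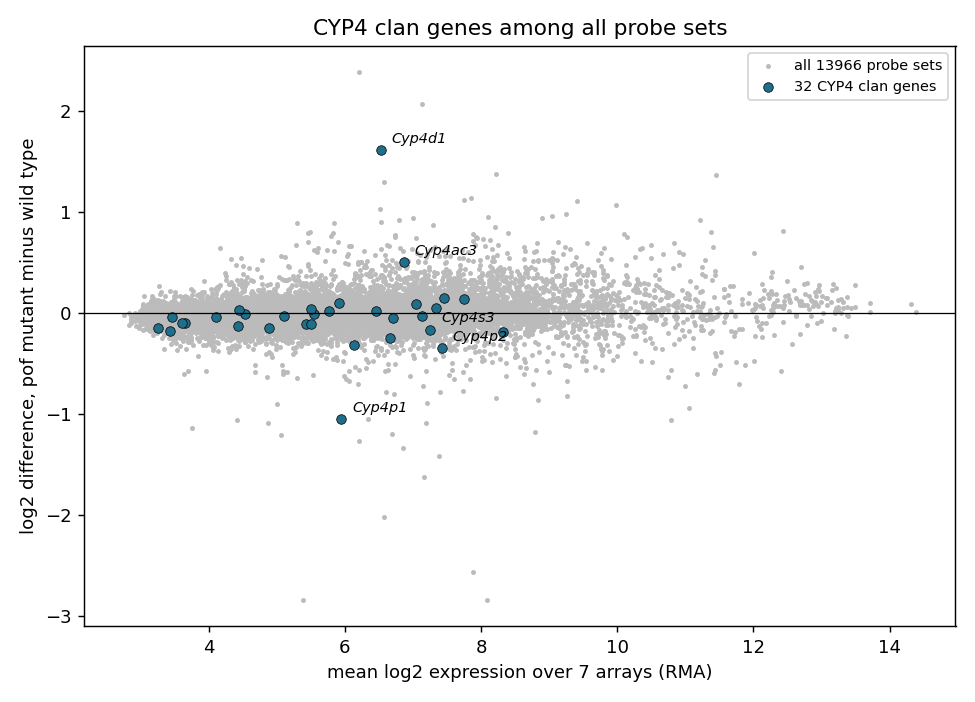
Log2 difference (pof mutant minus wild type, y axis) against mean log2 expression over 7 arrays (x axis) for all 13966 probe sets (grey) and the 32 CYP4 clan genes (blue). *Cyp4d1* at 1.61 and *Cyp4p1* at -1.05 lie farthest from 0 among the members, and the others run from -0.35 to 0.51.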

How the data were processed

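Larval pools of both genotypes were measured on 1 array each. The deposited log2 values came from RMA, run by the authors (per the submitters' processing notes; version not given there), and were used without further normalization. Groups and replicate numbers came from the sample titles. Probe sets were named through the platform annotation, updated by gene identifier from RefSeq (12394 of 12443 probe sets with 1 gene matched); coordinates are left out because the array table gives no build. The 13966 non-control probe sets were fitted with lmFit and eBayes (limma 3.58.1, R 4.3.3), mutant minus wild type without covariates, and p-values were adjusted by Benjamini-Hochberg. Ratios within arrays were compared by exact two-sided permutation over 35 splits, and these pairs were chosen after the data were seen. The fit was tested on simulated data with equal normal error on all arrays, so differences in array quality were not covered.

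Any member could be named; those with an unadjusted p under 0.05, non-overlapping groups, or in their subfamilies or Cyp4g were given by array, and each of 10 lists could give at most its 4 genes of lowest p; the lists cover partner genes and tissues. Genes between *Cyp4d1* and *Cyp4d14* were named by position, and *VhaAC45* was singled out among the neighbours of *Cyp4p1* after its values were seen. Members and lists were chosen with earlier results of these data known. Figures used matplotlib 3.10.9 in Python 3.11.15.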

Additional observations from a re-analysis of the deposited data

Results flagged for a closer look

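In 3 of 32 sets of 4 mutant values, 1 array stood apart by more than Dixon's 95% limit; about 1 set in 20 (1.6 here) would do so by chance. *Cyp313a5* was at 3.37 on pof mutant replicate 4, where the other mutant arrays were all at 3.46. *Cyp313b1* was at 7.16 on pof mutant replicate 2, against 7.11 on the other mutant arrays, and *Cyp4ae1* was at 5.97 on the same array, against 5.71 to 5.73. None of the 3 genes had an unadjusted limma p under 0.05 between the groups, and groups of 3 were not examined in this way.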

How the results depend on the processing

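Among the counts, the member median and the differences of *Cyp4d1*, *Cyp4p1*, *Cyp4p2*, *Cyp4ac3* and *Cyp4s3*, none changed direction under these alternatives. Without wild type replicate 1 the median of the members with a mean under 5 turned to 0.02 (-0.10 with all arrays), and that of all probe sets to 0.0060 (-0.02). Within the arrays of small 3' minus 5' difference *Cyp4g1* was at -0.0039 (0.14 with all arrays) and *Cyp313a4* at 0.04 (-0.15); the cause was not tested. The count of members past the threshold (1) was 0 at an adjusted p limit of 0.01 (limma), 0 with the replicate block, 2 with the 3' minus 5' covariate and 8 with array weights, and 0 to 2 when 1 array was left out. All probe sets past the threshold (9) were 4 at an adjusted p limit of 0.01 and 19 at 0.1, 2 with the block, 86 with the covariate, 16 with a gene's probe sets averaged, and 0 (467 with an unadjusted p under 0.05) to 34 when 1 array was left out. Array weights gave 1200, of which 544 were higher in the mutant; their estimation stopped before convergence and put a weight of 17.1 on wild type replicate 2. Members with an unadjusted p under 0.05 (5) were 9 with the covariate, 13 with array weights and 3 to 7 with 1 array left out, with fewest without pof mutant replicate 1 or wild type replicate 2. The share of all probe sets with such a p moved too, from 5.43% to 15.3% with the covariate and 25.6% with array weights. With 1 array left out that share was 3.34% to 7.82%. Where no member passed in these fits, 3 to 6 had an unadjusted p under 0.05. The median member difference ran from -0.072 to -0.0023 with 1 array left out, and was nearest 0 when that array was wild type replicate 1. *Cyp4d1* differed by 1.72 with the replicate block (adjusted p = 0.182) and by 1.505 to 1.72 with 1 array left out; over its 18 alternatives the adjusted p ran from 0.000813 to 0.350. *Cyp4p1* also passed with array weights (adjusted p = 0.000252), as did *Cyp4p2*, *Cyp4p3*, *Cyp4ac3*, *Cyp4s3*, *Cyp4e2* and *Cyp313a3*. *Cyp4e2* also had an unadjusted p under 0.05 with the covariate, without wild type replicate 1, after a further quantile normalization and in the arrays of small 3' minus 5' difference.

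In fits added after the data were seen, limma on the 4 arrays of small 3' minus 5' difference called 0 members and 0 probe sets (5 members and 694 probe sets with an unadjusted p under 0.05), with *Cyp4d1* at 1.51. The other 3 arrays, with 1 wild-type array assumed to vary like the mutant arrays, gave 0 and 0 (8 and 2265), with *Cyp4d1* at 1.71. Fewer arrays enter these fits.

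Whether the replicate numbers pair the samples is not known here. The deviations of same-numbered arrays from their group means correlated at 0.245, -0.571 and 0.559. Those of differently numbered arrays ran from -0.621 to 0.690, so these correlations cannot decide it. The replicate block is an alternative only, and pof mutant replicate 4 does not contribute to it. At a level limit of 6 *Cyp4p1* was not tested. Log2 means under 5 understate changes.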
